A study of Mus musculus with 2 samples.

Results

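Transcripts of the DNA replication machinery were compared between 2 mouse osteosarcoma cell lines, Dunn and LM8, each measured on 1 Affymetrix mouse genome array. The genes were 53 named factors of replication licensing, the fork, chromatin assembly and nucleotide supply, and a gene was included if a probe set carried its symbol and no other. Of these, 52 genes had such a probe set, out of 18193 genes with probe sets in all, and Chaf1a was not analysed here. Dunn is the parental line, described in the labels as non-metastatic, and LM8 is a subline of it, described as highly metastatic. Both were untreated and grown in the same Minimum Essential Medium, which held 10% serum and non-essential amino acids at 1%. The RNA labelled for each array weighed 10 µg. How many cultures, clones or passages stand behind each array is not given in the sources used here.

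With 1 array per line there was no replicate spread and no test of significance. Differences are log2 of the LM8 signal over the Dunn signal, and a gene was counted as higher or lower if it was at least 2-fold apart, a log2 ratio of 1. A gene took the value of its brightest measured probe set. A signal counted as measured above the floor, the median of its array, which was 21.06 for Dunn and 18.96 for LM8. Where a gene had several measured probe sets, the SD of their log2 ratios was the only spread at hand, with a median of 0.30 over 5521 genes. It holds technical and isoform differences and no replicate error. In total RNA of a culture, more cells in S phase and more RNA per cell cannot be told apart.

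DNA replication is prepared in G1, when the origin recognition complex, Cdc6 and Cdt1 load the Mcm2 to Mcm7 helicase onto origins, a step named licensing. Geminin blocks Cdt1 once S phase has begun, and the kinases Cdc7-Dbf4 and CDK then turn the loaded helicase on together with Cdc45 and the GINS complex. Behind the helicase, polymerase alpha and primase lay down primers, the clamp loader places PCNA, and polymerases delta and epsilon copy the strands with deoxynucleotides supplied by ribonucleotide reductase, thymidylate synthase and thymidine kinase. Many of these genes are textbook targets of the E2F transcription factors, which are held back by retinoblastoma family proteins until late G1. Cell lines divide continuously in culture, and dividing cells express these genes.

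The promoters of these genes are shown first. Many of the genes are textbook E2F targets, so a high share of E2F-type letters comes with the choice of genes. That share would be the same whichever line had the higher signals. RefSeq promoter windows on build GRCm38.p6, from 250 bases before to 50 bases after an annotated start, were at hand for 43 of the 52 genes. They were searched on both strands for TTTCCCGC, TTTCGCGC, TTTGCCGC and TTTGGCGC, with overlapping matches counted separately. Of the 43 genes, 15 (34.9%) held a match, against 2.26% of all 32851 promoter windows and 4.71% of the 9614 measured genes with a window. The 9 genes with a match that lay wholly before the start are printed below, 60 bases each, 5′ to 3′ on the gene's strand, with the E2F-type letters in capitals. The log2 ratio of LM8 over Dunn follows the coordinates.
Mcm5, chr8:75109332-75109391, plus strand, log2 ratio 0.90: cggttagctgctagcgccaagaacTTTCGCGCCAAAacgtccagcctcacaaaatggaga
Mcm6, chr1:128359780-128359839, minus strand, log2 ratio 0.71: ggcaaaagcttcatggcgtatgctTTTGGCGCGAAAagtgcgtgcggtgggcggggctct
Mcm7, chr5:138172015-138172074, minus strand, log2 ratio 0.71: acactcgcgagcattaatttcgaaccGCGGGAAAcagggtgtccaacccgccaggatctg
Orc1, chr4:108579394-108579453, plus strand, log2 ratio 1.68: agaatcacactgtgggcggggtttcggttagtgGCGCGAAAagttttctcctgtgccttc
Orc3, chr4:34614950-34615009, minus strand, log2 ratio 0.58: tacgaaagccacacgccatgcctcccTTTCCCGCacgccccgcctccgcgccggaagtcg
Cdc6, chr11:98907987-98908046, plus strand, log2 ratio 1.23: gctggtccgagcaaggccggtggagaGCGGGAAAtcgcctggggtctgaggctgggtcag
Gins3, chr8:95633492-95633551, plus strand, log2 ratio 0.90: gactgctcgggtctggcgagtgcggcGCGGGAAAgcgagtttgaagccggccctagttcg
Pola1, chrX:93632260-93632319, minus strand, log2 ratio 1.82: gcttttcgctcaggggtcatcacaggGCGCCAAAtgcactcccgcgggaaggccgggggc
Rfc3, chr5:151651209-151651268, minus strand, log2 ratio 1.68: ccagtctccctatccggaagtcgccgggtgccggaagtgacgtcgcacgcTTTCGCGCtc

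In Mcm5 and Mcm6 a pair of matches on opposite strands overlapped, which gives the run of 12 capitals, and Mcm6 held another match at position -47. The other 6 genes with a match (Mcm3, Cdt1, Lig1, Pole2, Pold1 and Pold3) held it only after the start. A match was held by 7 of the 18 genes counted higher and by 8 of the 25 under 2-fold. The median log2 ratio was 0.94 in genes with a match and 0.74 in those without. Mcm2, the helicase gene with the smallest difference, held no E2F-type match in its window, and neither did Pola2 or Tk1, of which Tk1 was among the most different genes. The CCAAT box, read as CCAAT on both strands, occurred in 24 of the 43 genes (55.8%), against 37.4% of all windows and 43.2% of measured genes. It was held by 7 of the 18 genes counted higher and 17 of the 25 others, with median log2 ratios of 0.83 with a match and 1.04 without. TTTGAA, the core of the cell cycle homology region, occurred in 7 genes (16.3%), against 17.9% of all windows and 14.5% of measured genes. A match describes letters in a window and no binding was measured.

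**Figure D1:**
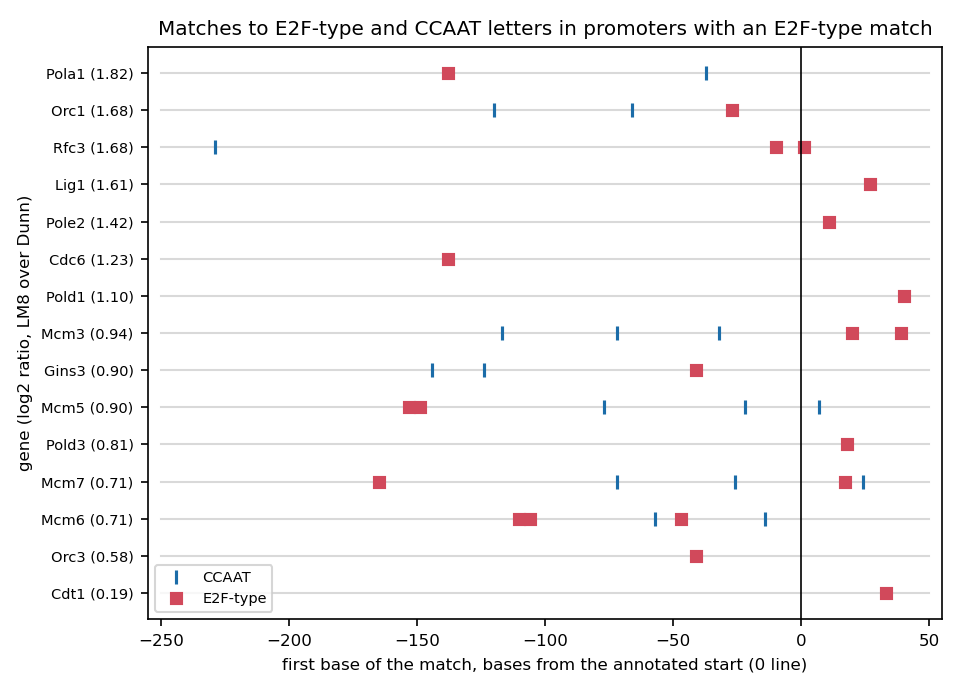
Positions of E2F-type matches (red squares) and CCAAT matches (blue bars) from 250 bases before to 50 bases after the annotated start in the 15 member promoters with an E2F-type match, ordered by log2 ratio of LM8 over Dunn (in parentheses). Matches lie on both sides of the start, and genes from Pola1 at 1.82 to Cdt1 at 0.19 carry one.

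All 52 replication genes were measured, and all 52 had a higher signal in LM8 than in Dunn on their brightest probe set. Of these, 21 (40.4%) were at least 2-fold higher in LM8, 31 differed by less and none was lower by 2-fold. Among all 11830 measured genes, 6.51% were 2-fold higher and 8.84% were 2-fold lower, and 44.7% had a log2 ratio above 0. Among genes above the floor on both arrays the share was 20 of 51 replication genes, against 6.2% of all. The median log2 ratio of the replication genes was 0.92, a 1.89-fold difference, whereas that of all measured genes was -0.08. The shift was moderate in size, since the largest difference was 3.53-fold. There were 7 genes at least 3-fold higher (13.5%), against 2.49% of all measured genes. The quartiles of the replication genes were 0.56 and 1.25, both above the all-gene upper quartile of 0.34.

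Scaling did not turn the direction. All 52 genes kept a ratio above 0 with arrays centred on their medians, with quantile normalization, with signal-dependent centring and with scaling on the hybridisation controls, where the number counted higher was 29, 23, 21 and 30. The share of higher genes among all calls went from 42.4% to 56.9% with array medians and 65.9% with the hybridisation controls, and the median of all genes from -0.08 to 0.07 and 0.16. These 2 scalings raise every log2 ratio by the same amount, so they could not bring any gene below 0. Nor could they change the gap of 1.00 between the replication and all-gene medians. That gap came to 0.97 after quantile normalization and 0.96 after signal-dependent centring. Among all settings able to change it, the extremes were 0.85, for the median over a gene's probe sets, and 1.01, for no floor and no filter.

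**Figure D2:**
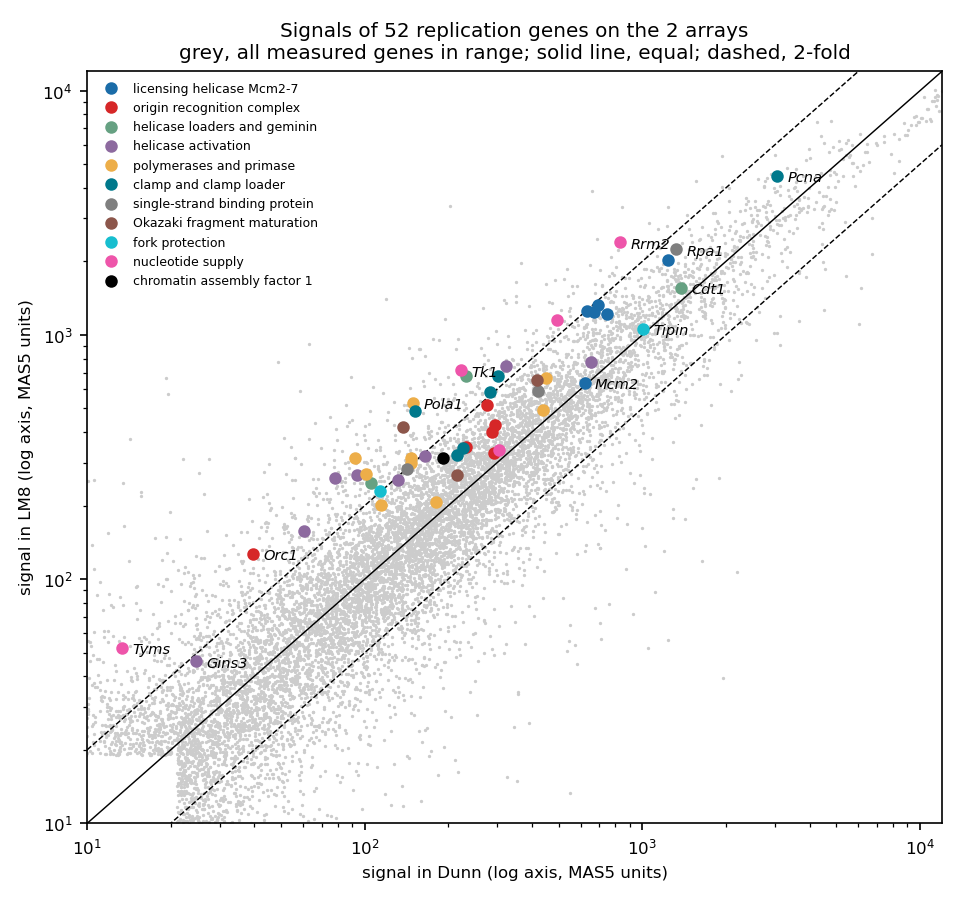
Signal of each replication gene in Dunn (x axis) and LM8 (y axis), MAS5 units on log axes, coloured by role, with all measured genes in range in grey, a solid line for equal signals and dashed lines for 2-fold. Every coloured point lies above the line of equal signals, from Mcm2 (619 and 636) just above it to Pola1 (150 and 528) well beyond 2-fold.

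None of the 6 replicative helicase genes was counted, and they ran from Mcm2 at 1.03-fold to Mcm4 at 1.98-fold. Mcm4 gave signals of 633 in Dunn and 1256 in LM8, a log2 ratio of 0.99, and its other probe set gave 0.97. Mcm3 had signals of 694 and 1327 (log2 ratio 0.94), and its 5 probe sets ran from 0.88 to 1.13. Mcm5 had signals of 667 and 1241 (log2 ratio 0.90), with a dim probe set at -0.19. These 3 subunits thus lay just inside the 2-fold line. Mcm7, at 1238 and 2025, and Mcm6, at 743 and 1214, each had a log2 ratio of 0.71, and the 4 probe sets of Mcm7 differed by an SD of only 0.05. Mcm2 stood apart from its partners, with signals of 619 and 636, a log2 ratio of 0.04 and a second bright probe set at -0.18. It lay 0.95 below Mcm4 and 0.67 below Mcm7, more than the spread between its own probe sets (SD 0.16), although the 6 proteins form 1 ring.

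In the origin recognition complex, which marks origins through the cell cycle, the difference lay mainly in Orc1 and Orc6. Orc1, the subunit whose protein is degraded in S phase in mammalian cells, gave 39.6 in Dunn against 127 in LM8 and was 3.21-fold higher. Its other probe set gave only 0.56, and with the floor at the 75th percentile of each array the Dunn signal fell under it and the log2 ratio became 0.41. Orc6 had signals of 276 and 515 on its 1 probe set, a log2 ratio of 0.90. Orc2, Orc3, Orc4 and Orc5, which with Orc1 form the ring around DNA, had log2 ratios of 0.53, 0.58, 0.48 and 0.18. Of these, Orc3 and Orc4 have no settled direction. Their other measured probe sets gave -0.54 and -0.23 for Orc3, and -0.79 and -0.37 for Orc4. Orc1 exceeded Orc5 by 1.51 in log2 ratio.

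The loaders and their inhibitor did not move alike. Cdc6, the ATPase that joins the origin complex before helicase loading, had signals of 105 and 248 and was 2.35-fold higher in LM8. Gmnn, which encodes the Cdt1 inhibitor geminin, had signals of 232 and 679 and was 2.93-fold higher. Cdt1, the helicase chaperone that geminin blocks, had signals of 1373 and 1563, a log2 ratio of 0.19, and its other bright probe set gave -0.09. Geminin therefore differed from its target by 1.36 in log2 ratio.

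Genes that switch the loaded helicase on were among the more different ones, with 4 of 8 counted higher and a median log2 ratio of 1.08. Cdc45, a subunit of the active helicase, had signals of 78.0 and 261 and was 3.34-fold higher, although a dim second probe set (39.4 and 38.6) gave -0.03. Mcm10, a helicase activator, had signals of 93.9 and 267 and was 2.84-fold higher, while its other probe sets lay near the floor at 0.14 and -0.16. The kinase gene Cdc7 had signals of 60.3 and 157 and was 2.60-fold higher, but its other measured probe set gave 0.44. Cdc7 came to 0.91 with probe sets averaged and to 0.71 with the floor at the 75th percentile, under 2-fold in both. Dbf4, its activating subunit, had signals of 323 and 745 on 1 measured probe set and was 2.31-fold higher. In the GINS complex, Gins1 (165 and 318), Gins2 (132 and 255) and Gins3 (24.7 and 46.1) had log2 ratios of 0.94, 0.95 and 0.90. Gins4 was the low member, with signals of 654 and 773 and a log2 ratio of 0.24. Gins3 was dim on both arrays, close to the floor.

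**Figure D3:**
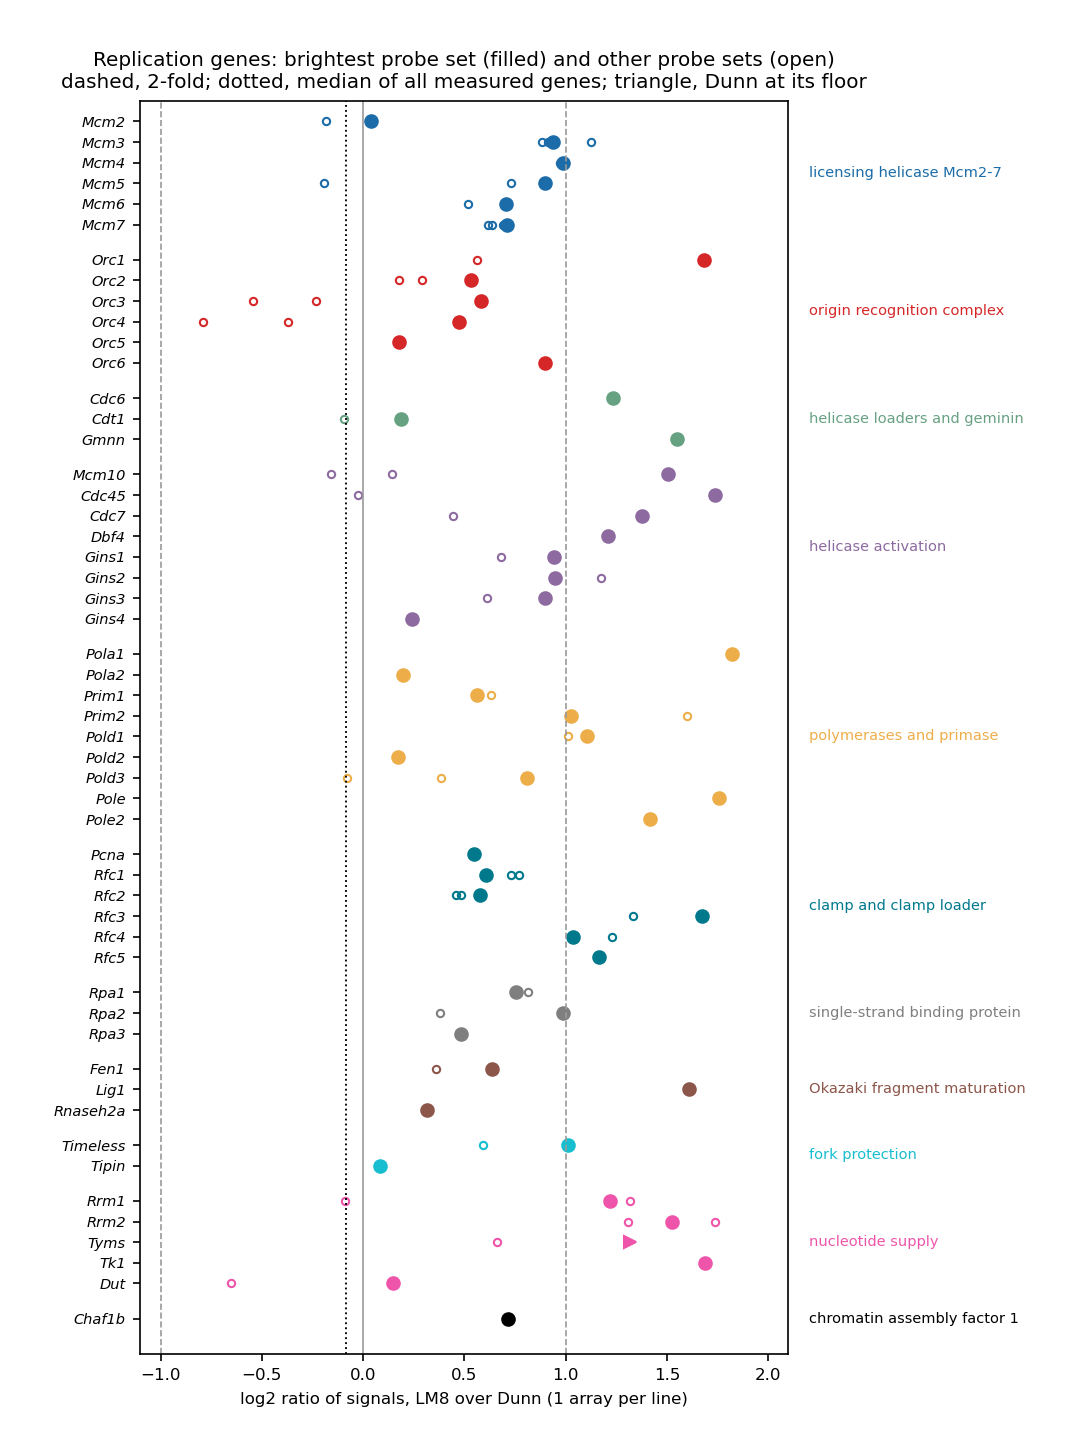
Log2 ratio of signals, LM8 over Dunn, for each of the 52 genes by role, with the brightest measured probe set as a filled point and other measured probe sets as open circles. Dashed lines mark 2-fold, the dotted line is the median of all measured genes at -0.08, and the triangle marks Tyms, whose Dunn signal lay at the floor; open circles below 0 belong to genes such as Orc3, Orc4 and Dut.

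Polymerase genes ran from 0.17 to 1.82 in log2 ratio, with 5 of 9 counted higher. The catalytic subunits of polymerases alpha, delta and epsilon were all among the 5. Pola1, the catalytic subunit of polymerase alpha, gave 150 in Dunn against 528 in LM8 and was 3.53-fold higher, the largest difference of the 52. Pole, the catalytic subunit of leading-strand polymerase epsilon, had signals of 92.5 and 313 and was 3.38-fold higher, and its accessory subunit Pole2 had 101 and 269 and was 2.67-fold higher. Pold1, the catalytic subunit of lagging-strand polymerase delta, had signals of 146 and 314 and was 2.15-fold higher, with both probe sets over 2-fold. The accessory subunits of polymerases alpha and delta were less different. Pola2 had signals of 181 and 207 (log2 ratio 0.19) and lay 1.63 below Pola1. Pold2 had signals of 439 and 495 (log2 ratio 0.17) and lay 0.93 below Pold1. Pold3 had signals of 115 and 200.5 (log2 ratio 0.81), and its other probe sets gave 0.38 and -0.08. Of the primase subunits, which make the RNA primer, Prim2 had 147 and 298 and was 2.04-fold higher, and the catalytic Prim1 had 451 and 667, a log2 ratio of 0.56. Prim2 gave 1.60 on its second probe set and Prim1 gave 0.63.

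The sliding clamp and its loader divided into a less and a more different part. Pcna, the clamp that tethers polymerases to DNA, had signals of 3059 and 4476, a log2 ratio of 0.55. Rfc1, the large loader subunit, and Rfc2 had log2 ratios of 0.61 and 0.58, with all 3 probe sets of each between 0.46 and 0.77. Rfc3 had signals of 152 and 486 and was 3.19-fold higher, Rfc4 had 283 and 582 and was 2.05-fold higher, and Rfc5 had 302 and 678 and was 2.24-fold higher. All measured probe sets of these 3 small subunits were over 2-fold. Rfc3 exceeded Rfc2 by 1.10 in log2 ratio, against SDs between probe sets of 0.24 and 0.06.

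None of the genes of RPA, which coats single-stranded DNA, was counted. Rpa1 had signals of 1325 and 2237 (log2 ratio 0.76), Rpa2 had 142 and 282 (0.99, with 0.38 on its other probe set) and Rpa3 had 420 and 588 (0.48). In the joining of Okazaki fragments, Lig1, the ligase that seals nicks, had signals of 138 and 420 and was 3.05-fold higher. The flap nuclease gene Fen1 (419 and 651) had a log2 ratio of 0.64, and Rnaseh2a (215 and 268), the catalytic subunit of the enzyme that removes ribonucleotides, had 0.31. The fork protection partners also differed from each other. Timeless had signals of 114 and 229 and was 2.01-fold higher, with 0.59 on its other probe set, whereas Tipin had 1002 and 1061, a log2 ratio of 0.08. Chaf1b, a subunit of the chromatin assembly factor that deposits histones behind the fork, had signals of 191 and 314, a log2 ratio of 0.72.

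Of the nucleotide supply genes, 4 of 5 were counted higher, with a median log2 ratio of 1.32. With probe sets averaged, Rrm1 (0.82) and Tyms (0.99) fell under 2-fold. Rrm2, the S phase subunit of ribonucleotide reductase, gave 832 in Dunn against 2391 in LM8 and was 2.87-fold higher, and its 3 probe sets ran from 1.31 to 1.74. Rrm1, the large subunit, had signals of 493 and 1148 and was 2.33-fold higher, with 1.32 on a second bright probe set and -0.09 on another that lay just above the floor. Tk1, the cytosolic thymidine kinase of the salvage route, had signals of 223 and 716 and was 3.22-fold higher on its 1 probe set. Tyms, which makes thymidylate, had a Dunn signal of 13.3 under the floor and an LM8 signal of 52.4, at least 2.49-fold higher. Both measured probe sets of Tyms were dim, and a further probe set annotated with Tyms and a pseudogene was not used. Dut, which removes dUTP, was the exception, with signals of 305 and 338, a log2 ratio of 0.15 and -0.65 on its dimmer probe set.

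Agreement between probe sets bounds these values. The 52 genes had 112 probe sets, of which 100 were measured, and 33 genes had at least 2. Among the 48 measured probe sets other than the brightest, 36 had a ratio above 0. No measured probe set of any member was 2-fold lower and 30 were 2-fold higher. These counts take several probe sets from the same gene. The matching shares over all 25144 measured probe sets are not given here, so the counts describe agreement within members only. Of the 71 member probe sets with signals over 100 on both arrays, 3 had a ratio below 0, 1 each from Mcm2, Cdt1 and Pold3. That rule depends on the difference itself, since it leaves out probe sets over 100 on only 1 array, in either direction. Examples lower in LM8 are from Orc3 (114 in Dunn and 78.4 in LM8) and Orc4 (144 and 82.9, and 103 and 79.9). Examples higher in LM8 are from Cdc45 (78.0 and 261) and Pole (92.5 and 313). Of 12 genes counted higher with at least 2 measured probe sets, all probe sets were 2-fold higher in 5: Prim2, Pold1, Rfc3, Rfc4 and Rrm2. Counted with the genes of 1 measured probe set, 14 of the 52 met that rule, against 4.36% of all measured genes. With probe sets averaged, 16 genes were counted higher, and Mcm2, Orc3, Orc4 and Dut had ratios of -0.07, -0.07, -0.23 and -0.25. Cdc6, Dbf4, Gmnn, Lig1, Pola1, Pole, Pole2, Rfc3, Rfc5, Rrm2 and Tk1 were 2-fold higher with every scaling, floor and gene summary tried. Averaging over probe sets could change only Rfc3 and Rrm2 among these, since each of the others had 1 measured probe set.

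The genes that missed the 2-fold rule narrowly were many. There were 8 with a log2 ratio of 0.85 to 1, namely Mcm4, Rpa2, Gins2, Gins1, Mcm3, Orc6, Gins3 and Mcm5, and just past the line were Timeless at 1.01, Prim2 at 1.03 and Rfc4 at 1.04. The count of 21 therefore rests on where the line was drawn. The common direction does not, but it rests on the choice of the brightest probe set. With the mean or the median over a gene's probe sets, 48 of the 52 had a ratio above 0. In 10 of the 33 genes with at least 2 measured probe sets, these had opposite signs. Of the 52, 30 lay in the highest 10% of all measured genes by log2 ratio and 17 in the highest 5%.

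Gene position was also compared. In gene order of GRCm38.p6, each member was set beside the 10 measured genes on either side. All 52 members had a higher ratio than the median of their neighbours, which follows largely from the members all having ratios above 0. The share of all measured genes above their neighbours is not given here, so that count has no background. The neighbour medians ran from -0.60 around Mcm2 to 0.43 around Mcm10, with a middle value of -0.09, close to that of all genes. Mcm2 and Tipin, the least different of the 52, lay in the stretches with neighbour medians of -0.60 and -0.43. Pole, with a log2 ratio of 1.76, lay in one at -0.45. The part of gene position in the result was not tested.

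**Figure D4:**
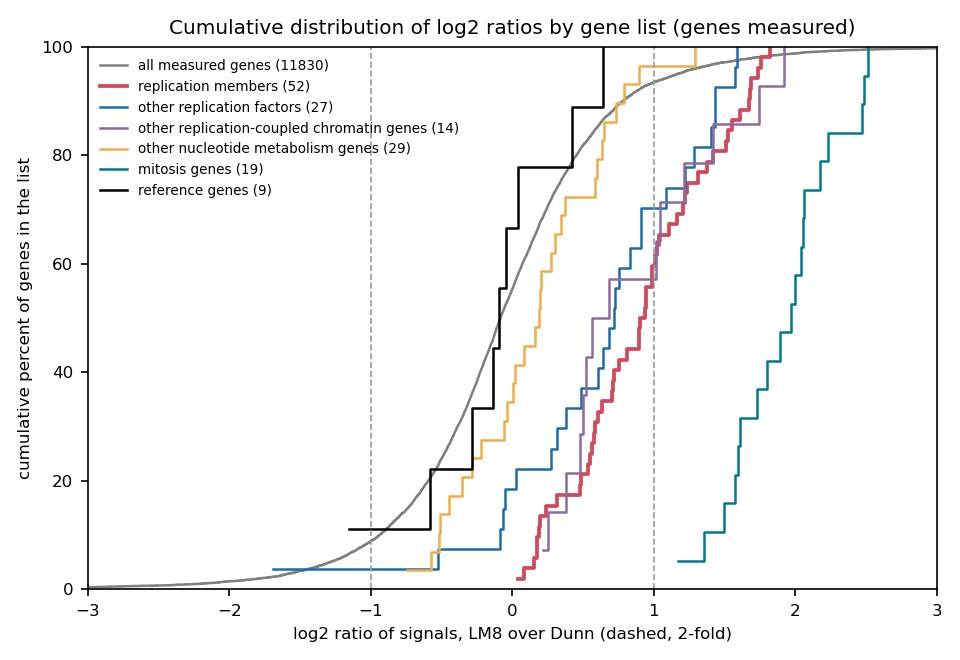
Cumulative percent of measured genes against log2 ratio, LM8 over Dunn, for all measured genes (grey), the 52 replication genes (thick red) and 5 related or reference lists, with dashed lines at 2-fold. The replication curve starts above 0 and has its median at 0.92, the mitosis curve lies to its right with a median of 1.97, and the nucleotide metabolism and reference curves lie close to all genes.

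Other replication factors were less uniform. Among 27 measured, 8 were 2-fold higher, 1 was lower and 18 were neither. Of the 27, 5 had a ratio below 0, and the median log2 ratio was 0.72. Claspin (Clspn), which relays fork stress to the checkpoint kinase, was 3.01-fold higher and the topoisomerase gene Top2a 2.97-fold higher. Dscc1 and Chtf18 of the alternative clamp loader were 2.70-fold and 2.64-fold higher, of which Chtf18 was dim in Dunn (24.8). The other measured probe set of Clspn gave a log2 ratio of 0.60. Rnaseh2b, a partner of Rnaseh2a, was 2.70-fold higher. The lower gene was Pold4, the small subunit of polymerase delta, at 209 in Dunn and 64.6 in LM8, 3.24-fold lower. Polymerase delta transcripts thus ran from -1.70 for Pold4 to 1.10 for Pold1. The factors nearest to equal were Rnaseh1 (0.03), Rif1 (-0.05) and Mcm8 (-0.07).

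Nucleotide enzymes outside the S phase set differed little on their brightest probe sets. Among 29 measured, 1 was 2-fold higher and none lower, and the median log2 ratio was 0.19. The higher gene was Dck, the deoxycytidine kinase of the salvage route, with signals of 232 and 566, 2.44-fold higher. Dtymk, Pfas and Ppat, which act in thymidylate and purine synthesis, had log2 ratios of 0.01, 0.02 and -0.04. The other measured probe set of Ppat gave 1.08. Probe sets also disagreed the other way in Gart and Samhd1, picked out after their values were seen. Their lowest measured probe sets gave -1.34 and -1.19, against -0.28 and 0.89 on their brightest. Rrm2b, the p53-induced counterpart of Rrm2, was picked out after its values were seen. It had signals of 109 and 122, a log2 ratio of 0.16 against the 1.52 of Rrm2.

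Chromatin genes coupled to replication all had ratios above 0 on their brightest probe sets. Among 14 measured, 6 were 2-fold higher and none lower, and the median log2 ratio was 0.62. Uhrf1, which guides maintenance DNA methylation, was 3.78-fold higher with signals of 163 and 615, and the histone chaperone gene Nasp was 3.36-fold higher with 263 and 881. Asf1b, the S phase form of a histone chaperone, was 2.68-fold higher. Hells, Cbx5 and Hat1 were 2.32-fold, 2.06-fold and 2.02-fold higher. Measured probe sets ran from 0.20 to 1.75 in log2 ratio for Nasp, from 0.28 to 1.21 for Hells and from 0.75 to 1.19 for Cbx5. Nearest to equal were Kat7, Rbbp7 and Rbbp4, with log2 ratios of 0.22, 0.25 and 0.38. The lowest measured probe set of Kat7 gave -0.25.

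Mitosis genes, listed for comparison, exceeded the replication genes in size. All 19 measured were 2-fold higher on their brightest probe set, from 1.17 to 2.51 in log2 ratio, with a median of 1.97. The lowest probe sets of Tpx2, Ttk and Cenpf gave -0.76, 0.13 and 0.42. The count of 19 became 17 for the mean over a gene's probe sets, and 16 if every probe set had to be 2-fold apart. A 75th percentile floor also gave 17. The part of the mitosis genes in the replication result was not tested, and with 1 array per line the difference between the lists has no test. Of 9 reference genes, B2m was 2-fold lower and none was higher, and their median was -0.09.

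Both lines carried osteoblast lineage transcripts, with 7 of 8 markers above the floor in each and summed signals of 19755 in Dunn and 19216 in LM8. Among them, Ibsp (239 and 96.6) and Pth1r (1115 and 492) were 2.48-fold and 2.26-fold lower in LM8. Dmp1 was below the floor, and Bglap and Runx2 were not analysed here. Of 7 macrophage markers, 5 exceeded the floor in Dunn and 2 in LM8, with summed signals of 236 and 111 and Ptprc under the floor in both. Endothelial markers gave 205 and 113 (2 of 5 above the floor in each), epithelial 90.5 and 72.5 (2 and 1 of 5) and lymphocyte markers 32.2 and 38.0, with 0 of 4 above it. Their part in the result was not tested. Between the 3' and 5' control probe sets the signal ratio for Gapdh was 0.708 in Dunn and 0.789 in LM8, and for beta-actin 1.26 and 1.16.

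**Figure D5:**
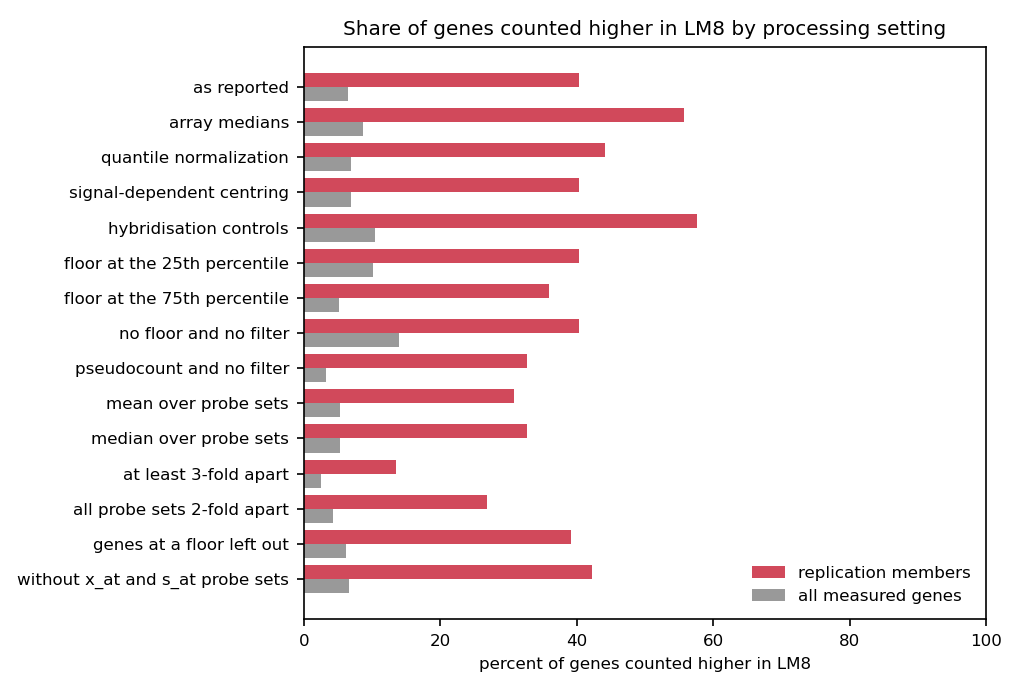
Percent of measured replication genes (red) and of all measured genes (grey) counted higher in LM8 under the reported setting and 14 alternatives. The red bars run from 13.5% with a 3-fold rule to 57.7% with scaling on the hybridisation controls, and each exceeds the grey bar of the same setting.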

How the data were processed

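The authors deposited MAS5 signals, linear intensities of probe sets, per the submitters' processing notes, for 45101 probe sets on each of 2 arrays. The MAS5 version and detection calls are not given in the sources used here. Each array had a 2% trimmed mean of 100. The array sheets named the same chip type, scanner and scan day. The 64 control probe sets were left out, and the other 45037 were put on a common 2% trimmed mean (factor 1.00). A signal under its array's median was set to that floor, and a probe set was measured if 1 array lay above its floor (25144 probe sets, 11830 genes). Symbols came from the platform annotation, updated by gene identifier against GRCm38.p6: 34958 probe sets had 1 symbol, 932 several and 9160 non-control ones none, and 99.4% of identifiers matched. A gene took its brightest measured probe set, by the mean of both log2 signals. Folds against a floored signal are lower bounds. The number of arrays limits the precision.

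Members, lists and rules were chosen with earlier results of these data known. Every member is named. Of related lists, up to 6 genes 2-fold apart with the largest ratios and up to 3 nearest to 0 could be named. The steps were tested on simulated data. Python 3.11.15, numpy 2.4.6, pandas 2.3.3, statsmodels 0.14.6 and matplotlib 3.10.9 were used.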

Additional observations from a re-analysis of the deposited data

How the results depend on the processing

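Under 14 alternatives (4 scalings, 2 floors, no floor, a pseudocount, 2 gene summaries, 2 counting rules, genes at a floor left out, and probe sets marked x_at or s_at left out, the last chosen after seeing the data), the count of 21 higher replication genes ran from 14 to 30, except 7 with a 3-fold rule, and none was lower. Their median ran from 0.77 to 1.16. No called member changed sign; 26 of 621 single member values moved by more than 0.30, the median SD between probe sets. Counts over all genes moved more: 1237 higher and 639 lower with the hybridisation controls, 1647 and 2494 with a 25th percentile floor, 377 and 397 with a 75th percentile floor, 2553 and 3351 with no floor and no filter, and 294 and 336 at 3-fold. Among related lists, higher nucleotide metabolism genes numbered 2 with array medians, 3 with the hybridisation controls, 0 at 3-fold and 2 without x_at and s_at probe sets. Higher replication factors numbered 1 and chromatin genes 2 at 3-fold, and chromatin genes 3 when all probe sets had to be 2-fold apart. Lower reference genes numbered 0 with the hybridisation controls and at 3-fold. Causes were not tested, beyond more or fewer genes being measured with another floor. No paired analysis was possible because each line had 1 array. Dim probe sets (Tyms, Gins3, Orc1 in Dunn) limit the largest ratios that can be read.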
